A study of Solanum lycopersicum with 2 samples.

Results

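A set of 8 tomato genes, of 34725 identifiers in the table, that build fruit chloroplasts or dismantle their chlorophyll was read in red ripe fruit of a line overexpressing ALMT9 and of the wild type. They were taken by locus identifier as GLK1, GLK2 and APRR2-like, 3 chloroplast regulators, HY5 and PIF1a, 2 light signalling factors, and SGR1, PAO and PPH, 3 genes of chlorophyll breakdown. The names are published tomato assignments, which the deposited table does not hold. Only GLK1, GLK2, HY5 and SGR1 are also gene symbols in the RefSeq table used here, all 4 on the chromosome that the identifier numbers, and none of the identifiers themselves occurs in that table. Each genotype is represented by 1 library of ripe fruit total RNA, at 49 days after flowering, with 3 plants of each genotype harvested. Both were grown under the same conditions, and the overexpression line is called OX1 in the extraction protocol. The sources used here do not give the promoter of the transgene, the cultivar, the number of independent lines or any pooling of the plants. By the identifiers, APRR2-like, HY5 and SGR1 are all numbered on chromosome 8, and the other 5 lie on 5 different chromosomes. ALMT9 belongs to the aluminum-activated malate transporters, membrane channels for the organic acid malate, and the study asks which genes its level affects in ripening fruit.

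As a tomato fruit ripens, its chloroplasts turn into chromoplasts, chlorophyll is broken down and red carotenoids build up. The GLK (GOLDEN2-LIKE) transcription factors promote chloroplast development. GLK2 is the gene behind the uniform ripening trait and acts mainly in the green shoulder of unripe fruit, while GLK1 acts mainly in leaves. Breakdown runs in order through removal of magnesium from chlorophyll by SGR proteins, removal of the phytol tail by PPH, and opening of the pigment ring by PAO.

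RPKM values are reads per kilobase of gene model and per 1e6 reads of the library. The library totals recovered from them were 19252026 reads for overexpression and 19736832 reads for the wild type. Whether these totals hold all reads or aligned reads only is not given in the sources used here. The locus entered for ALMT9, Solyc06g072910.2, stood at 20.5 RPKM in the overexpression library and 0.0742 RPKM in the wild type, which matches the labels. Of 9 loci entered as ripe fruit markers, all 9 passed the filter used below, with a summed level of 11281 RPKM in the overexpression library and 11843 RPKM in the wild type. Single ripe fruit markers were not level: their log2 ratios ran from -0.98 to 1.86. Of the 9, 2 were at least 2-fold higher, beside 8.09% of all genes above that filter, and 0 lower by that much, beside 4.3%. Counting intervals of the ratio lay above 1 for 4 and below 1 for 5, beside 32.5% and 29.9% of all such genes. Of 11 loci entered as seed markers, 10 passed that filter. Of the 10, 8 were at least 2-fold lower in the overexpression library, beside 4.3% of all genes above that filter. Summed over the 11, the level was 34.8 RPKM in the overexpression library and 229 RPKM in the wild type. None of the 11 was at 0 in either library, and the log2 ratios of the 10 ran from -5.17 to -0.3. The seed markers thus moved between the libraries, and their part in the values below was not tested. In whole fruit, fewer cells of a type and less RNA per cell cannot be told apart. With 1 library a genotype no test was possible: every comparison describes these libraries, and all intervals cover counting error only.

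Among the 8 genes, APRR2-like was higher in the overexpression library, PIF1a was lower, and each of the breakdown genes was nearly level between the libraries. Differences were taken as log2((overexpression + 1)/(wild type + 1)) of RPKM, for genes whose 2 values averaged 1 RPKM or more, a filter that 6 of the 8 passed and GLK1 and GLK2 did not. Of the 6, 1 was at least 2-fold higher, against 8.09% of all 17287 genes above the filter, and 0 were at least 2-fold lower, against 4.3%. The other 5 lay within 2-fold, all of them below 0 on this scale, beside 48.8% of all genes above the filter. SGR1 turned above 0 under 1 of 4 scalings. With 6 genes, these counts do not stand apart from the background. By the exact 95% counting interval of the RPKM ratio, 1 of the 6 lay wholly above 1 and 3 lay wholly below 1, where all genes above the filter gave 32.5% above and 29.9% below. Under 2 of the 4 scalings SGR1 joined them, which made 4 below 1. The median log2 ratio of the 6 was -0.11, beside 0.02 for all genes above the filter.

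**Figure D1:**
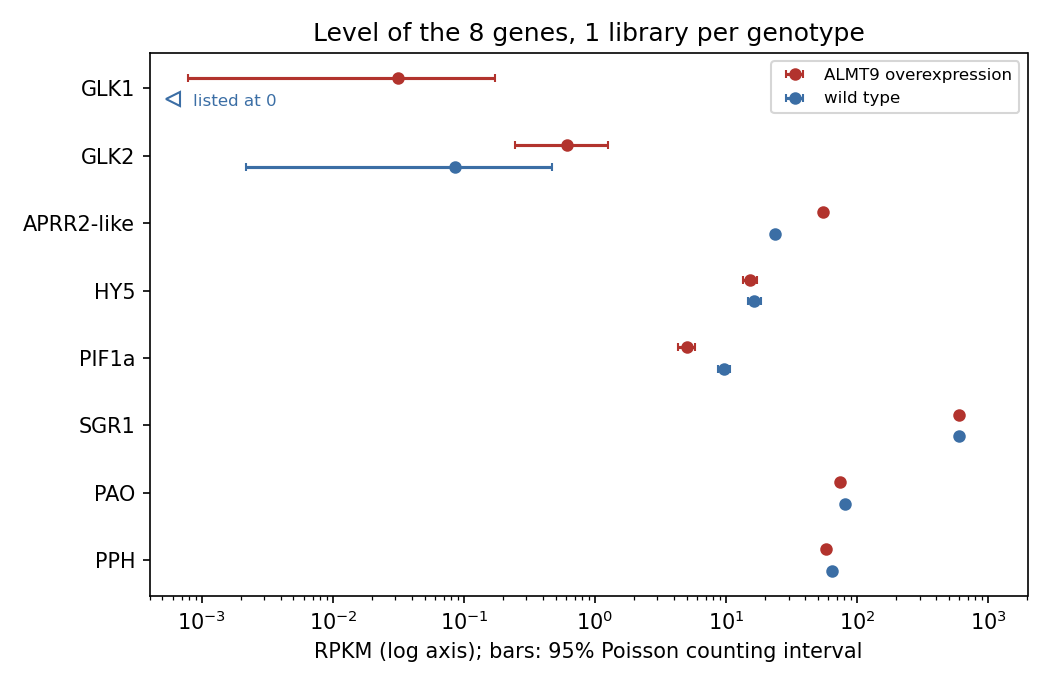
RPKM of the 8 genes (log axis) in the overexpression library (red, upper point of each pair) and the wild type library (blue, lower point), with 95% Poisson counting intervals as bars. SGR1 stands at 601 RPKM in the overexpression library and 605 RPKM in the wild type, GLK1 and GLK2 stay below 1 RPKM in both, and the points of APRR2-like and PIF1a lie apart.

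GLK1 and GLK2 were at the edge of detection. GLK1 (Solyc07g053630.2) was at 0.0311 RPKM in the overexpression library, the worth of 1 read at the shortest gene model length its value allows, 1669 bp, and was listed at 0 in the wild type. At that length a count of 0 allows up to 0.0911 RPKM (3 reads), so no difference was detectable and no fold is given. GLK2 (Solyc10g008160.2) was at 0.61 RPKM in the overexpression library and 0.085 RPKM in the wild type, a ratio of 7.18.

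How firm that ratio of GLK2 is depends on the length of its gene model, which is not given in the sources used here. The shortest length its values allow, 596 bp, gives 7 reads in the overexpression library and 1 read in the wild type, with an exact 95% counting interval of the ratio from 0.922 to 323. At double that length, 1192 bp, the reads are 14 and 2 in the same order and the interval runs from 1.65 to 65.1. At 1788 bp they are 21 and 3, with an interval of 2.14 to 37.6. The interval therefore spans 1 at the shortest length only among these 3 lengths, and at each of them the wild type has at most 3 reads.

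APRR2-like was the abundant member of the chloroplast regulators in ripe fruit. It is a pseudo-response regulator-like transcription factor related to the GLK proteins, and its overproduction in tomato fruit is known to increase plastid number and pigment. The gene (Solyc08g077230.2) stood at 54.8 RPKM in the overexpression library and 23.8 RPKM in the wild type, from at least 2356 and 1051 reads. The RPKM ratio was 2.3 (counting interval 2.14 to 2.47), and the log2 ratio with the pseudocount was 1.17. Counting error thus leaves the ratio above 2, but how far fruit samples of the same genotype would differ is not known from these data.

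A difference of this size was uncommon among genes without being rare. Of all genes above the filter, 1091 (6.31%) had a log2 ratio at least as high as APRR2-like. Among the 2911 genes whose mean RPKM was within 1.5-fold of its own, 4.36% did. Its level was above that of 91.7% of all identifiers in the overexpression library and above 82.8% in the wild type. Relative to HY5, APRR2-like was 3.57 times as abundant per length in the overexpression library (counting interval 3.14 to 4.06) and 1.45 times in the wild type (1.27 to 1.65).

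**Figure D2:**
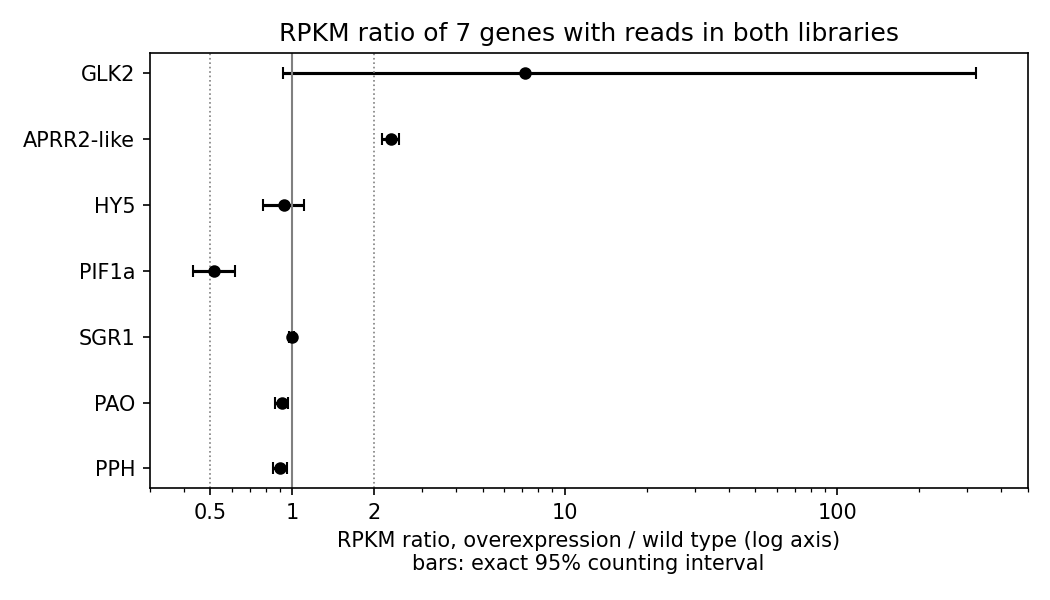
RPKM ratio of overexpression over wild type (log axis) for the 7 genes with reads in both libraries; bars are exact 95% counting intervals from the smallest read numbers the values allow, the solid line marks 1 and the dotted lines mark 0.5 and 2. The interval of APRR2-like lies wholly above 2, that of PIF1a lies wholly below 1, and that of GLK2 reaches from 0.922 to 323.

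The light signalling factors HY5 and PIF1a have opposed roles in light responses. HY5 is a bZIP factor that promotes them, and PIF1a is a phytochrome-interacting bHLH factor that in tomato fruit represses the carotenoid gene PSY1. HY5 (Solyc08g061130.2) was at 15.3 RPKM in the overexpression library and 16.5 RPKM in the wild type, from at least 255 and 281 reads. Its RPKM ratio of 0.93 had counting bounds of 0.782 and 1.11, so no difference was detectable at this depth.

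PIF1a (Solyc09g063010.2) was at 5 RPKM in the overexpression library and 9.66 RPKM in the wild type, from at least 193 and 382 reads. Its RPKM ratio of 0.518 had counting bounds of 0.433 and 0.617, and its log2 ratio of -0.83 fell short of the 2-fold rule. Of all genes above the filter, 6.53% had a log2 ratio at least as low, and among the 3199 genes of like level 7.16% did. HY5 was 3.07 times as abundant per length as PIF1a in the overexpression library (2.54 to 3.7) and 1.71 times in the wild type (1.46 to 1.99). The quotient of these, overexpression over wild type, was 1.8 (counting interval 1.41 to 2.29), and a common scaling of a library does not alter it.

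The chlorophyll breakdown genes SGR1, PAO and PPH were abundant and nearly level between the libraries. SGR1, whose loss gives the green-flesh fruit that keeps chlorophyll when ripe, was the most abundant of the 8 genes in each library. It (Solyc08g080090.2) stood at 601 RPKM in the overexpression library and 605 RPKM in the wild type, from at least 14399 and 14847 reads, above 99.6% of identifiers in each. The RPKM ratio was 0.994 (counting interval 0.972 to 1.02). The values allow at most a small difference by counting error, and which library is higher turns with the scaling: the log2 ratio of -0.0083 became 0.0076 when the median ratio of genes at or above 10 RPKM in both libraries was set to 0. With equal column sums it was -0.097 and with a trimmed mean -0.048, and under both the counting interval lay below 1.

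PAO, pheophorbide a oxygenase, and PPH, pheophytinase, were both slightly lower in the overexpression library. PAO (Solyc11g066440.1) was at 74.6 RPKM there and 81.5 RPKM in the wild type, from at least 2317 and 2597 reads. The RPKM ratio of PAO was 0.915 (counting interval 0.864 to 0.968). PPH (Solyc01g088090.2) was at 57.7 RPKM in the overexpression library and 64.1 RPKM in the wild type, from at least 2131 and 2428 reads. For PPH the RPKM ratio was 0.9 (counting interval 0.849 to 0.954). Both intervals exclude 1, but differences of this size were ordinary: 38.9% and 37.3% of all genes above the filter had log2 ratios at least as low as PAO and PPH.

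The levels of the breakdown genes relative to each other differed little between the libraries. PAO was 1.29 times as abundant per length as PPH in the overexpression library (1.22 to 1.37) and 1.27 times in the wild type (1.2 to 1.34). SGR1 was 8.06 times as abundant as PAO in the overexpression library (7.72 to 8.42) and 7.42 times in the wild type (7.11 to 7.73). The quotient of the SGR1 to PAO ratios, overexpression over wild type, was 1.09 (counting interval 1.02 to 1.15). SGR1 was 10.4 times as abundant as PPH in the overexpression library (9.96 to 10.9) and 9.43 times in the wild type (9.04 to 9.85). For SGR1 to PPH the quotient was 1.1 (counting interval 1.04 to 1.18), so both intervals with SGR1 lay above 1. Summed over SGR1, PAO and PPH, the level was 733 RPKM in the overexpression library and 750 RPKM in the wild type.

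In both libraries the levels ran, from high to low, SGR1, PAO, PPH, APRR2-like, HY5, PIF1a, GLK2 and GLK1. The Poisson intervals of PPH and APRR2-like overlapped in the overexpression library, at 55.3 to 60.2 RPKM for PPH and 52.6 to 57.1 RPKM for APRR2-like. In the wild type they lay far apart, at 61.6 to 66.7 RPKM for PPH and 22.4 to 25.3 RPKM for APRR2-like. The intervals of GLK2 and GLK1 overlapped in the wild type, and other neighbours in the order did not overlap in either library.

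**Figure D3:**
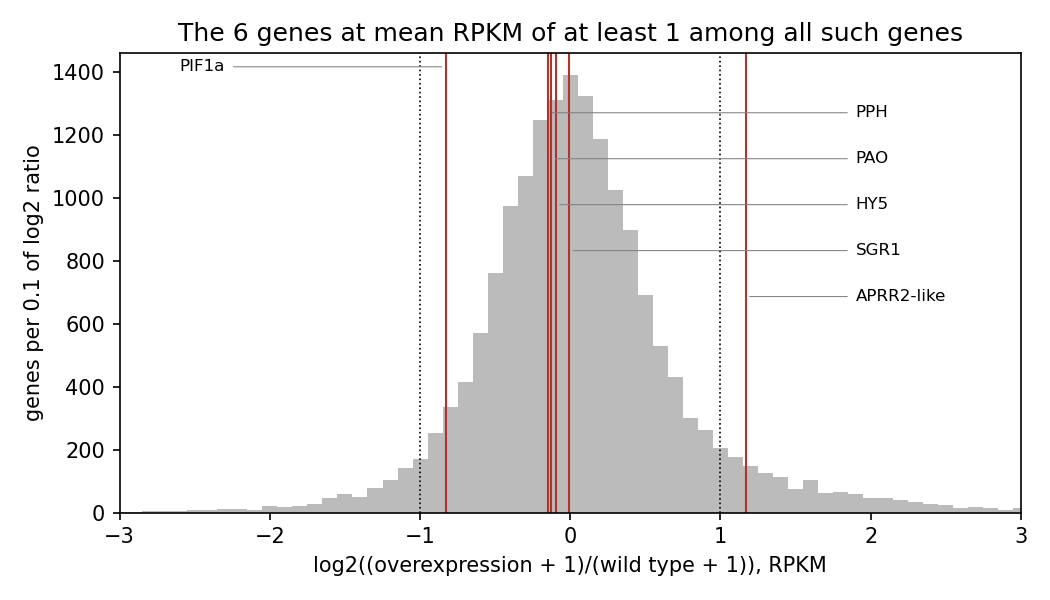
Histogram of the log2 ratio, overexpression over wild type with a pseudocount of 1 RPKM, for the 17287 genes above the filter of 1 RPKM (the axis is cut at 3 on either side), with the 6 genes above the filter as red lines and 2-fold as dotted lines. SGR1, HY5, PAO and PPH sit in the centre of the distribution, PIF1a in its lower flank and APRR2-like beyond the upper dotted line.

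Related genes were read as lists of loci entered from published assignments, described by counts because single roles could not be checked against a table used here. Loci for other steps of chlorophyll breakdown (chlorophyll b reductases, chlorophyllases, a red chlorophyll catabolite reductase and an SGR-like protein) were mixed. Of 8, 5 passed the filter. Of the 5, 1 stood at least 2-fold higher, beside 8.09% of all genes above the filter, and 0 lower by that much, beside 4.3%. With 5 loci these counts are few to read against those shares. The median log2 ratio of the 5 was 0.06, or -0.011 with the column sums set equal. The highest was Solyc06g053980.2, at 3.79 RPKM in the overexpression library and 1.15 RPKM in the wild type. The lowest was Solyc07g024000.2, at 65 RPKM and 100.1 RPKM in the same order, and an RPKM ratio of 0.65 (counting interval 0.573 to 0.736).

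Loci for chlorophyll synthesis were mostly lower in the overexpression library. Of 16, 14 passed the filter and 13 of these lay below 0, while 48.8% of all genes above the filter did. The number at least 2-fold lower was 2, beside 4.3% of all such genes, and 0 were higher by that much, beside 8.09%. With 14 loci these 2-fold counts are few to read against those shares. The list had a median log2 ratio of -0.57. The counting interval lay below 1 for 9 loci, beside 29.9% of all such genes, and above 1 for 0, beside 32.5%. It lay on both sides of 1 for 5. The seed markers lay in the same direction, and their part in this was not tested. Summed over the 16 loci, the level was 156 RPKM in the overexpression library and 232 RPKM in the wild type. The lowest was Solyc07g054210.2, at 12.5 RPKM in the overexpression library and 34.1 RPKM in the wild type. The highest was Solyc04g009200.2, at 27.5 and 26.3 RPKM in the same order.

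Loci for phytochromes, cryptochromes and their signalling partners, without HY5 and PIF1a, were also mostly lower, as were the seed markers, whose part was not tested. Of 21, 14 passed the filter, 12 of them below 0, beside 48.8% of all genes above the filter. On the log2 scale with its pseudocount, 0 were at least 2-fold apart in either direction, beside 12.4% of all such genes. The list had a median log2 ratio of -0.43, and counting intervals lay below 1 for 10 loci, beside 29.9% of all such genes, and above 1 for 1, beside 32.5%. At the low end, Solyc12g005950.1 was at 13.8 RPKM in the overexpression library and 28.6 RPKM in the wild type. Its log2 ratio of -0.998 fell just short of the 2-fold rule. Without the pseudocount its RPKM ratio was 0.483 (counting interval 0.435 to 0.536), which is past 2-fold. At the high end, Solyc08g074270.2 was at 4.42 RPKM in the overexpression library and 3.27 RPKM in the wild type.

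Loci for transcription factors reported to act on GLK genes or on fruit chloroplasts in tomato (KNOX, BELL, ARF and MADS-box genes) were mostly higher. The list was not split by whether a factor promotes or represses them. Of 6, 5 passed the filter, and 4 of these lay above 0, beside 51.2% of all genes above the filter. The same 4 had counting intervals above 1, beside 32.5% of all such genes, and 1 was at least 2-fold higher, beside 8.09%. With 5 loci these counts are few to read against those shares. The highest was Solyc01g100510.2, at 8.14 RPKM in the overexpression library and 2.21 RPKM in the wild type, an RPKM ratio of 3.69 (counting interval 2.73 to 5.07). The lowest was Solyc11g069190.1, at 9.36 RPKM in the overexpression library and 15.6 RPKM in the wild type.

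Loci for nuclear light-harvesting proteins, known in Arabidopsis as targets of GLK factors, were at low levels in either library. Of 28, 21 were below the filter, and the summed level of all 28 was 49.2 RPKM in the overexpression library and 49.6 RPKM in the wild type. Of the 7 above the filter, 1 was at least 2-fold higher, beside 8.09% of all genes above the filter, and 0 were lower by that much, beside 4.3%. With 7 loci these counts are few to read against those shares. The median log2 ratio of the 7 was 0.3. The highest was Solyc01g105030.2, at 5.2 RPKM in the overexpression library and 2.09 RPKM in the wild type. The lowest was Solyc09g014520.2, the most abundant of the list, at 16 and 27 RPKM in the same order.

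**Figure D4:**
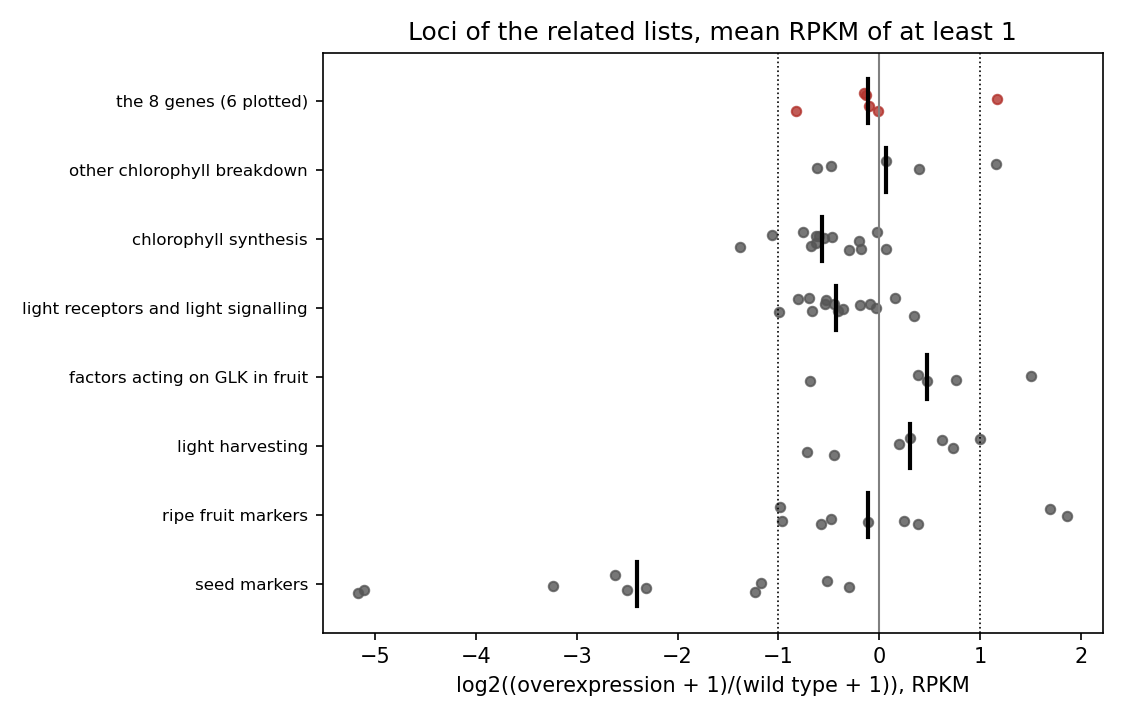
Log2 ratio, overexpression over wild type with a pseudocount of 1 RPKM, of each locus above the filter of 1 RPKM, for the 8 genes (red, 6 plotted) and 7 related lists (grey), with the median as a black bar and 2-fold as dotted lines. The chlorophyll synthesis and light signalling lists lie mostly left of 0, with medians of -0.57 and -0.43, and the seed markers reach -5.17.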

How the data were processed

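RNA-seq was done on ripe tomato fruit, with 1 library per genotype. The authors deposited RPKM values per gene identifier, per the file name. TopHat is named without a version, per the submitters' processing notes. The sources used here give no counter, genome build, annotation or strand setting, so reads of overlapping or near-identical genes are uncertain. Columns were assigned by sample title and groups by genotype label. Read totals and read numbers were recovered from the RPKM values as the smallest whole reads both columns allow, at a length of at least 60 bp, for 24427 of 24429 genes above 0. They can be whole fractions of the true numbers, which makes intervals too wide. PCR copies are not independent molecules. The recovery and the 2-fold rule were tested on simulated data. RPKM ratios have exact (Clopper-Pearson) 95% intervals, levels have exact Poisson intervals, and quotients of levels within a library have log-normal intervals from the same reads. The log2 scale with its pseudocount of 1 RPKM understates ratios of low genes. All 8 genes are named, and of each related list the loci with the highest and lowest log2 ratio. The genes and lists were chosen with earlier results of these data known. Alternatives covered the pseudocount, filter, fold and 4 scalings; a minimum of 20 reads was added after seeing the data. No sequences are shown, since no sequence table was used here. Python 3.11.15, numpy 2.4.6, scipy 1.17.1 and pandas 2.3.3 were used.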

Additional observations from a re-analysis of the deposited data

How the results depend on the processing

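APRR2-like stayed above 2-fold and PIF1a below 0 in all 7 alternatives run for them, 3 pseudocounts and 4 scalings. With a pseudocount of 5 RPKM their log2 ratios were 1.05 and -0.55. GLK1 was at 0.39 with a pseudocount of 0.1 RPKM, which may rest on as little as 1 read. Equal column sums gave -0.097 for SGR1, -0.22 for PAO and -0.24 for PPH, and a trimmed mean gave -0.048 for SGR1. Setting the median ratio of genes at or above 10 RPKM to 0 turned SGR1 round, to 0.0076. Of the 6 genes above the filter, 3 had counting intervals below 1, and 4 did with equal sums or the trimmed mean. At 1.5-fold 1 of the 8 genes was lower (PIF1a), and at 4-fold 0 were higher. Genes at least 2-fold higher or lower, 1398 and 744, were 667 and 342 with a pseudocount of 5 RPKM, 2819 and 2163 at 1.5-fold and 341 and 94 at 4-fold. Requiring an average of 5 RPKM left 12855 genes in place of 17287, of which 860 were higher and 554 lower. Of the related lists, the median of the other chlorophyll breakdown loci, 0.06, turned to -0.011 with equal sums and -0.21 with an average of 5 RPKM required. The median of chlorophyll synthesis loci, -0.57, was -0.34 with a pseudocount of 5 RPKM, and that of light-harvesting loci, 0.3, was 0.15 with that pseudocount and 0.2 with an average of 5 RPKM required. These list alternatives and the minimum of 20 reads were chosen after seeing the data. No paired analysis was possible because there is a single library of each genotype, and no library could be left out either. Depth limits GLK1 and GLK2, which had 1 and 7 reads in the overexpression library at the shortest lengths their values allow.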

Other observations

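Neighbouring loci, in the order of the identifiers, were read 3 on each side of each gene. All 6 loci beside APRR2-like were above the filter and lay between -0.54 and 0.39 on the log2 scale, so the higher level was not shared by them. Beside PIF1a 2 loci were above the filter, at -0.44 and -0.22. Around GLK1 2 of the 6 neighbours were at least 2-fold higher, beside 8.09% of all genes above the filter. Beside each of the other genes of the set, 0 neighbours above the filter were higher by that much. With so few loci, the count around GLK1 is not read as a trait of that region. Of the 2 higher neighbours of GLK1, Solyc07g053640.1 was at 95.9 RPKM in the overexpression library and 26.96 RPKM in the wild type. The other, Solyc07g053600.2, was at 6.88 and 1.6 RPKM in the same order. Beside HY5, Solyc08g061160.1 was at 17 RPKM in the overexpression library and 68.6 RPKM in the wild type.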
